A study of Mus musculus with 10 samples.

Results

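The extracellular matrix and stromal genes described here were chosen by name: the collagen chain genes, the laminin chain genes, and a fixed set of other matrix and mesenchymal genes, which were Fn1, Mgp, Dcn, Sparc, Bgn, Lum, Eln, Nid1, Vim, Pdgfra, Pdgfrb, Bmp7, Timp1, Timp2, Timp3, Mmp2 and Mmp11. They came to 57 genes of the 8252 genes that had a probe set annotated with 1 symbol on MG_U74Av2, an oligonucleotide array for mouse transcripts, and each gene was read by its brightest probe set. Fbn1, also named in the rule, had no probe set with 1 symbol and was not analysed here. The genes were chosen with earlier results of these data known. The samples were 6 advanced thymic tumours of mice homozygous for IkL, a hypomorphic allele of the Ikaros gene, and unfractionated thymocytes of 3-week-old mice on a C57Bl6 background, 2 preparations from wild-type mice and 2 from IkL/L mice. All tumours and the IkL/L thymocytes therefore carried the same mutation, and only the wild-type thymocytes did not. The age and strain background of the tumour-bearing mice were not given, so tumour, age and the difference between a solid mass and a cell preparation cannot be told apart. Whether each tumour came from its own mouse was not stated, and p-values measure only the spread between arrays.

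Collagens are built from 3 chains wound together; the fibrillar types form the fibres of connective tissue, type IV forms the sheet of basement membranes, and other types attach fibres to membranes or to one another. Laminins, made of an alpha, a beta and a gamma chain, are the other main component of basement membranes. Fibroblasts, pericytes, endothelium and epithelium make most of these proteins, whereas thymocytes make few of them. In the thymus they form the capsule, the septa, the vessel walls and the network through which thymocytes migrate.

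Of the 57 genes, 34 were tested because they lay above the median intensity of the array on at least 2 arrays, and 9 of these lay above it on all 10. Col11a2, Mgp, Pdgfrb and Dcn passed that filter through tumour arrays alone, so a difference was built into their selection. The same holds in the other direction for Col15a1, which passed through thymocyte arrays alone. It read 26.5 to 56.6 in tumours, where the lowest array median was 79.8. The other 23 genes were not tested. Their intensities ran from 1.6 to 138.2 with means between 5.35 and 56.4, and 19 of them never exceeded the array median. Among them were several that define mesenchymal cells. Vim, the intermediate filament of mesenchymal cells and of leukocytes, read 8.5 to 49.4 in tumours and 64.6, 75.2, 80.1 and 38.3 on the thymocyte arrays (wild-type 1 and 2, then IkL/L 1 and 2, the order used throughout). Sparc, a collagen-binding glycoprotein, read 38.9 to 77.1 in tumours and 6.0, 31.8, 10.7 and 42.6 in thymocytes. Lum, a proteoglycan of collagen fibres, read 14.5 to 113.4 in tumours and 31.7 to 48.5 in thymocytes. Nid1, which links laminin to type IV collagen, stayed at or below 38.8 on every array. The rest were the laminin chains Lama2, Lama4 and Lamb1, the type IV chains Col4a3, Col4a4 and Col4a5, the fibrillar chains Col2a1, Col5a2 and Col11a1, the collagens Col8a1, Col10a1, Col12a1, Col13a1, Col14a1, Col17a1, Col19a1 and Col22a1, and Mmp2 and Timp3. The highest single value among all 23 was that of Col12a1 in tumour 6.

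Tumours were compared with the mean of both thymocyte genotypes, each genotype weighted equally. Of the 34 tested genes, 8 rose and 1 fell at an adjusted p under 0.05 (limma, Benjamini-Hochberg over 7172 probe sets): Pdgfrb, Mgp, Dcn, Bmp7, Lamb2, Col11a2, Fn1 and Col7a1 rose, and Col15a1 fell. That was 26.5% of the tested genes, against 6.27% of all tested probe sets, and the upward calls alone were 23.5% against 3.49%. Since the genes were chosen with earlier results of these data known, these shares are not independent of that choice. The downward call was 1 of 34, against 2.79%. Without the 4 genes that passed the filter through tumours alone, 4 of 30 rose (13.3%) and 1 fell. The 1 that fell, Col15a1, had passed the filter through thymocyte arrays alone. All thymocyte arrays shared a chip lot and a hybridization day with only 1 and 2 tumours, and none of the 9 calls held with lot, day or fluidics run as a block, as detailed with the batch values further on. The tumour arrays lay wholly above the thymocyte arrays for 6 tested genes and wholly below for 1, where 5.45% and 5.33% of all probe sets did so. The 6 included Mgp, Pdgfrb and Dcn, which passed the filter through tumours alone, and the 1 was Col15a1. Most of the list did not pass. The median log2 difference over the tested genes was 0.09, with 20 positive and 14 negative, against -0.03 over all probe sets. In these samples of mixed cells, fewer cells of a type and less RNA per cell cannot be told apart.

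**Figure D1:**
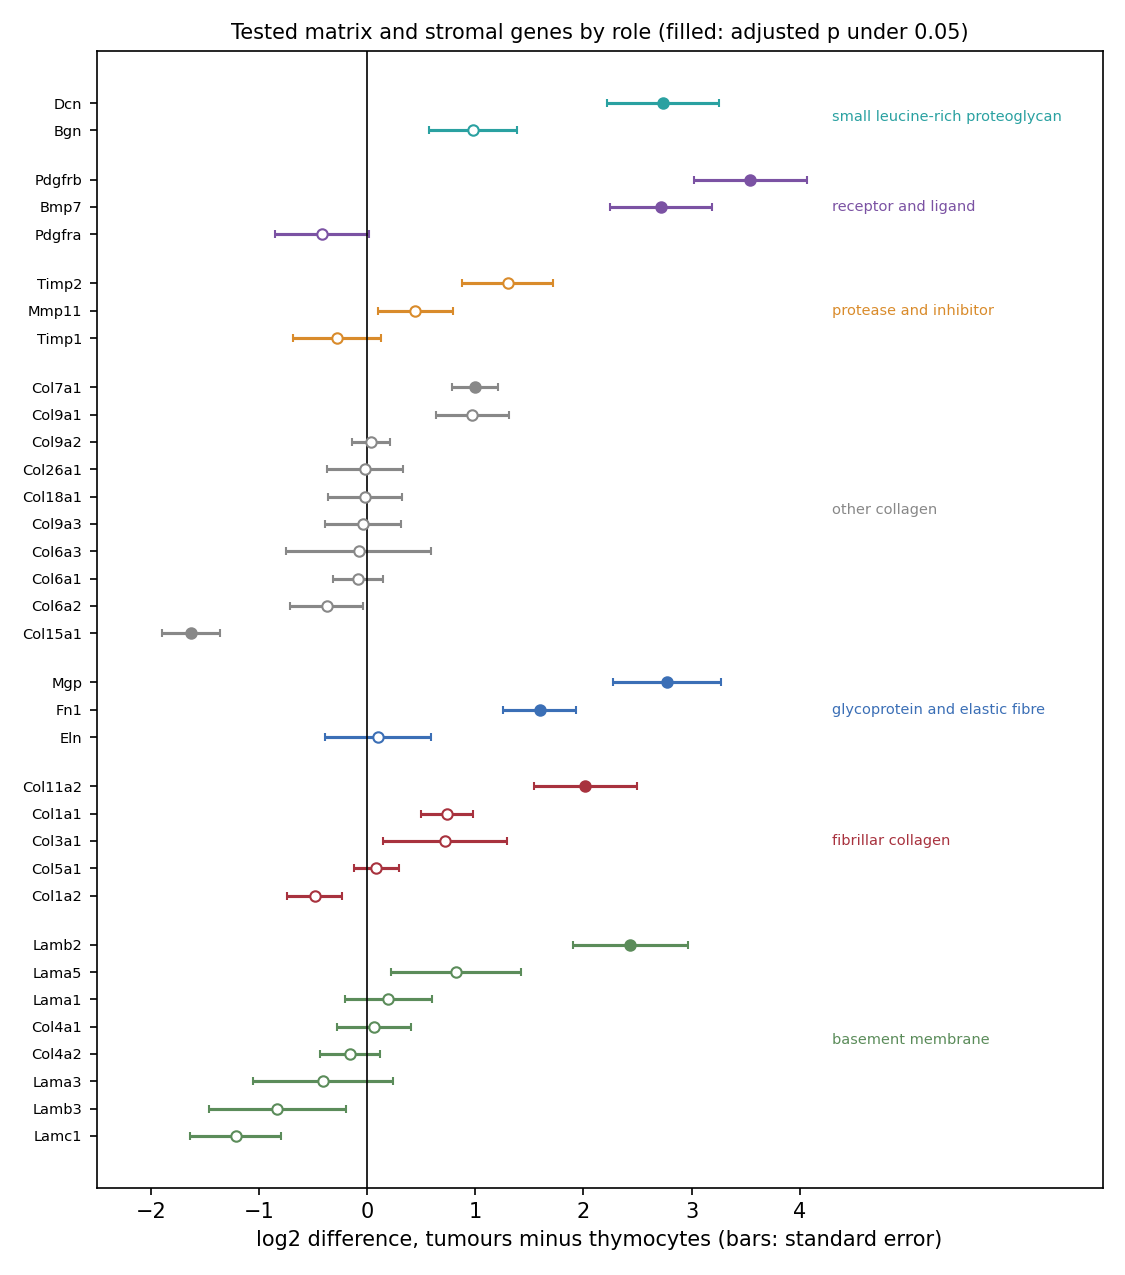
Log2 difference between the mean of 6 tumours and the equally weighted mean of 2 wild-type and 2 IkL/L thymocyte arrays (horizontal axis) for the 34 tested matrix and stromal genes, grouped by role; bars are standard errors and filled points passed an adjusted p under 0.05. Filled points are scattered over 6 of the 7 roles, 8 to the right of 0 and Col15a1 to the left at -1.63, while the open points, 25 in all, lie on either side of 0.

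The receptor and ligand genes held the largest rise. Pdgfrb, the receptor for platelet-derived growth factor that marks pericytes and fibroblasts, read 441.6, 220.9, 635.0, 503.0, 474.1 and 363.1 in tumours 1 to 6 and 17.7, 61.3, 11.5 and 95.5 in thymocytes. Every tumour was brighter than the brightest thymocyte array, and IkL/L array 1 lay below the floor of 16 at which low intensities were set. The means were 439.6 ± 139.3 (SD, n = 6) in tumours and 46.5 ± 39.5 (SD, n = 4) in thymocytes. Its log2 difference was 3.54 ± 0.52 (SE), an 11.7-fold rise (adjusted p = 0.00481). It was the only one of the 34 tested genes to pass, at its brightest probe set, against each genotype alone, with log2 differences of 3.67 from wild-type (adjusted p = 0.024) and 3.42 from IkL/L thymocytes (adjusted p = 0.0374). Bmp7, a secreted ligand of the bone morphogenetic protein family (chr2:172868012-172940321, mouse build GRCm38.p6, as for all gene positions here), read 483.6, 259.3, 383.6, 767.9, 356.6 and 250.2 in tumours and 49.4, 27.4, 40.5 and 215.3 in thymocytes. The groups did not overlap, and IkL/L array 2 came closest to the dimmest tumour, number 6. The rise was 2.72 ± 0.47 (SE) in log2, or 6.58-fold (adjusted p = 0.0105). Against wild-type thymocytes it was 3.39 (adjusted p = 0.0228), and against IkL/L thymocytes 2.05, which did not pass (adjusted p = 0.115). Pdgfra, the receptor typical of fibroblast precursors, read 35.3 to 168.2 in tumours and 103.7 to 206.0 in thymocytes, with a log2 difference of -0.42 (adjusted p = 0.59).

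Among glycoproteins and elastic fibre genes, 2 of the 3 tested rose. Mgp encodes matrix Gla protein, an inhibitor of calcification secreted by vascular smooth muscle and cartilage cells (chr6:136872435-136875823). It read 300.4, 198.3, 75.0, 61.5, 59.4 and 223.6 in tumours and 6.0, 16.2, 11.3 and 26.2 in thymocytes, 2 of which lay below the floor. The groups were well apart, and the tumours themselves split, with 1, 2 and 6 at or above 198.3 and 3, 4 and 5 at or below 75.0. The difference was 2.77 ± 0.50 (SE) in log2, or 6.83-fold (adjusted p = 0.0122). Fn1, fibronectin, the glycoprotein that integrins bind and on which collagen fibres assemble (chr1:71585473-71653280), read 318.7, 469.6, 159.2, 272.1, 318.0 and 509.3 in tumours and 81.9, 57.0, 116.9 and 226.6 in thymocytes. IkL/L array 2 exceeded tumour 3, so the groups overlapped. The rise was 1.6 ± 0.34 (SE) in log2, or 3.02-fold (adjusted p = 0.0253). Against wild-type thymocytes alone it was 2.22 (adjusted p = 0.0318) and against IkL/L thymocytes 0.97 (adjusted p = 0.256). Eln, elastin, read 35.7 to 207.3 in tumours and 59.9 to 114.4 in thymocytes, a log2 difference of 0.10 (adjusted p = 0.921).

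Of the small leucine-rich proteoglycans, which bind collagen fibres and set their spacing, Dcn rose. Decorin (chr10:97479500-97518163) read 560.5, 251.8, 188.7, 96.5, 131.8 and 300 in tumours and 37.5, 28.2, 15.7 and 65.6 in thymocytes. All tumours were above all thymocyte arrays, with tumour 1 brightest and tumour 4 dimmest. The log2 difference was 2.74 ± 0.52 (SE), or 6.66-fold (adjusted p = 0.0157). It was of like size against each genotype, 2.73 from wild-type and 2.74 from IkL/L thymocytes, and passed against neither alone (adjusted p = 0.0733 and 0.0724). Bgn, biglycan, read 788.2, 497.8, 293.2, 151.3, 224.0 and 405.7 in tumours and 161.7, 159.2, 186.7 and 187.3 in thymocytes. Tumour 4 lay below the thymocytes, and the difference of 0.98 ± 0.41 (SE) did not pass (adjusted p = 0.181). A further probe set for Bgn gave -0.09 (adjusted p = 0.871).

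**Figure D2:**
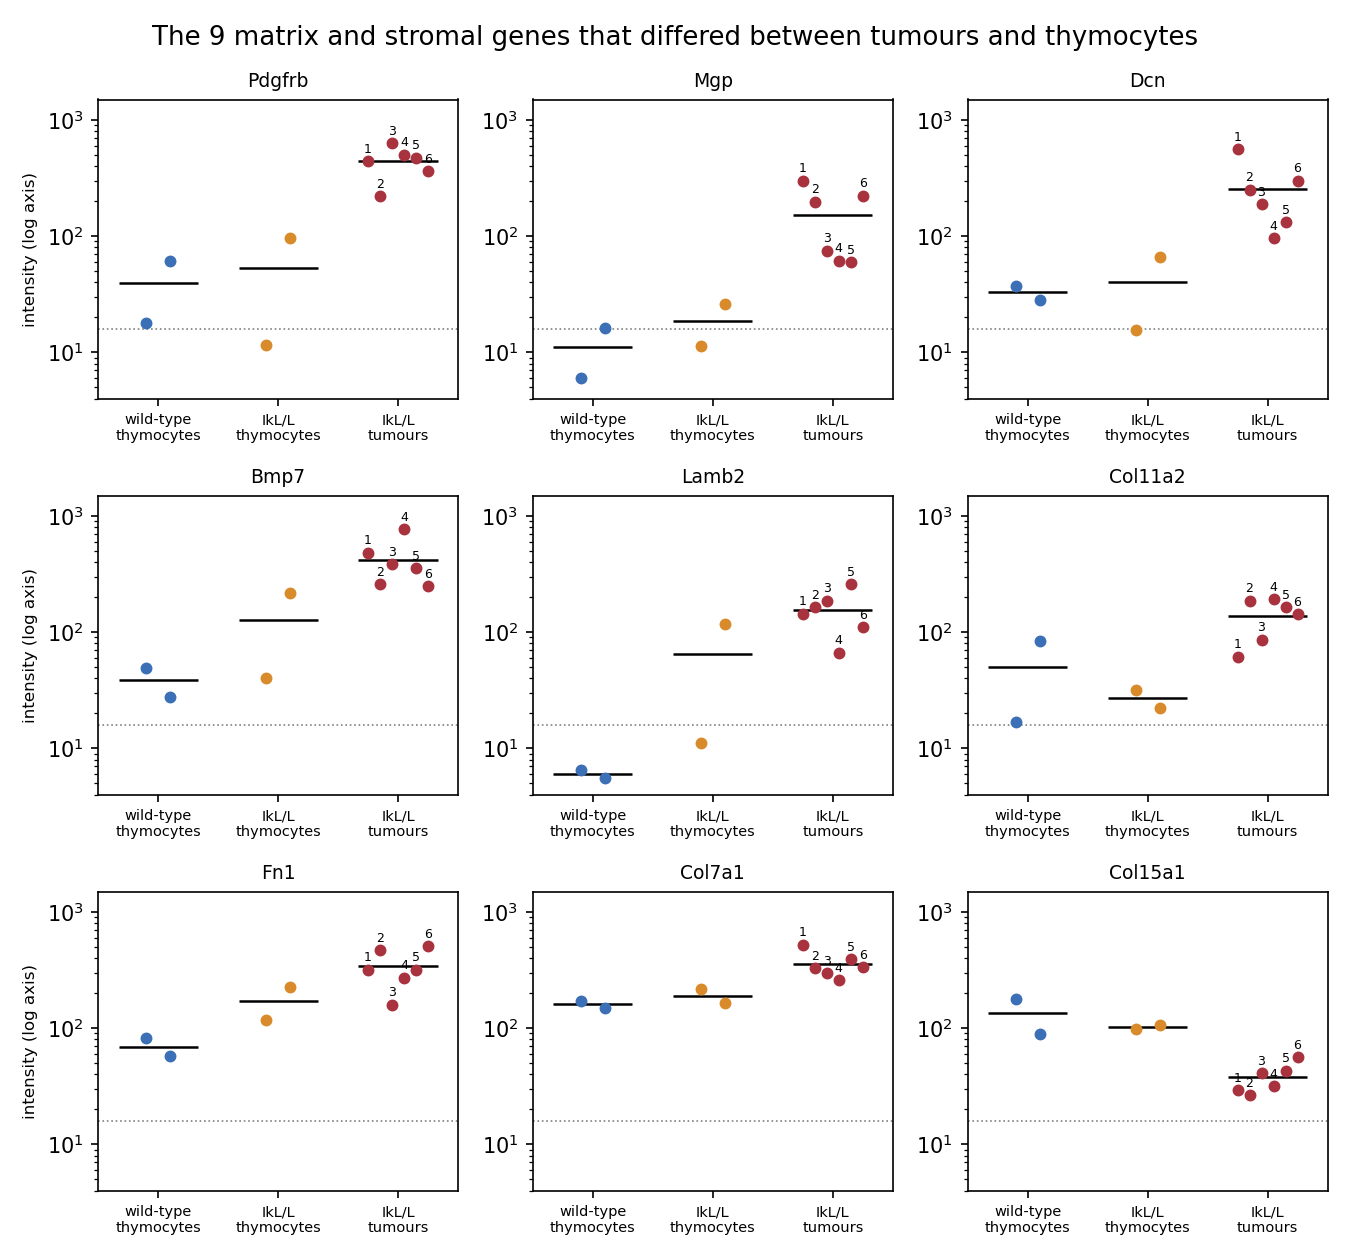
Intensity on a log axis for the 9 matrix and stromal genes that differed between tumours and thymocytes, with 1 point per array, numbers naming the tumour, bars at the group mean and a dotted line at the floor of 16. Pdgfrb, Mgp, Dcn, Bmp7 and Col7a1 lie wholly higher in tumours, Lamb2, Col11a2 and Fn1 overlap through 1 thymocyte array each, and Col15a1 lies wholly lower.

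The fibrillar collagen genes gave results that depended on the probe set. Type I collagen, the main fibre of connective tissue, is made of Col1a1 and Col1a2 chains, each of which had 2 tested probe sets. The brighter probe set for Col1a1 (103709_at) read 217.4 to 420.5 in tumours and 107.8, 156.6, 210.0 and 253.9 in thymocytes, and its difference of 0.74 ± 0.24 (SE) did not pass (adjusted p = 0.104). The dimmer one (94305_at) read 231.4, 495.6, 138.8, 181.6, 92.2 and 334.8 in tumours and 39.8, 62.0, 41.2 and 12.4 in thymocytes. That is a rise of 2.57 ± 0.47 (SE) in log2 with no overlap (adjusted p = 0.0126). The brighter probe set for Col1a2 (161156_r_at) read 445.5 to 833.4 in tumours and 517.1, 931.0, 1014.1 and 1180.7 in thymocytes, a difference of -0.49 (adjusted p = 0.279). The dimmer one (101130_at) read 244.9, 614.4, 156.6, 124.4, 571.5 and 318.6 in tumours against 12.0, 7.3, 14.7 and 18.4 in thymocytes, 3 of which were below the floor. Its rise of 4.10 ± 0.45 (SE) in log2 (adjusted p = 0.00122) exceeded that of any of the 34 genes at its own brightest probe set. Against wild-type thymocytes, both at the floor, tumours were at least 17.8-fold higher (adjusted p = 0.00731), and against IkL/L thymocytes the log2 difference was 4.05 (adjusted p = 0.00934). The dimmer probe sets of both genes passed the filter through tumour arrays alone, so a difference was built into their selection. No thymocyte array exceeded 62.0 for either, where the lowest array median was 79.8. The 2 probe sets for Col1a2 thus had opposite signs, and which of them follows the transcript was not tested.

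**Figure D3:**
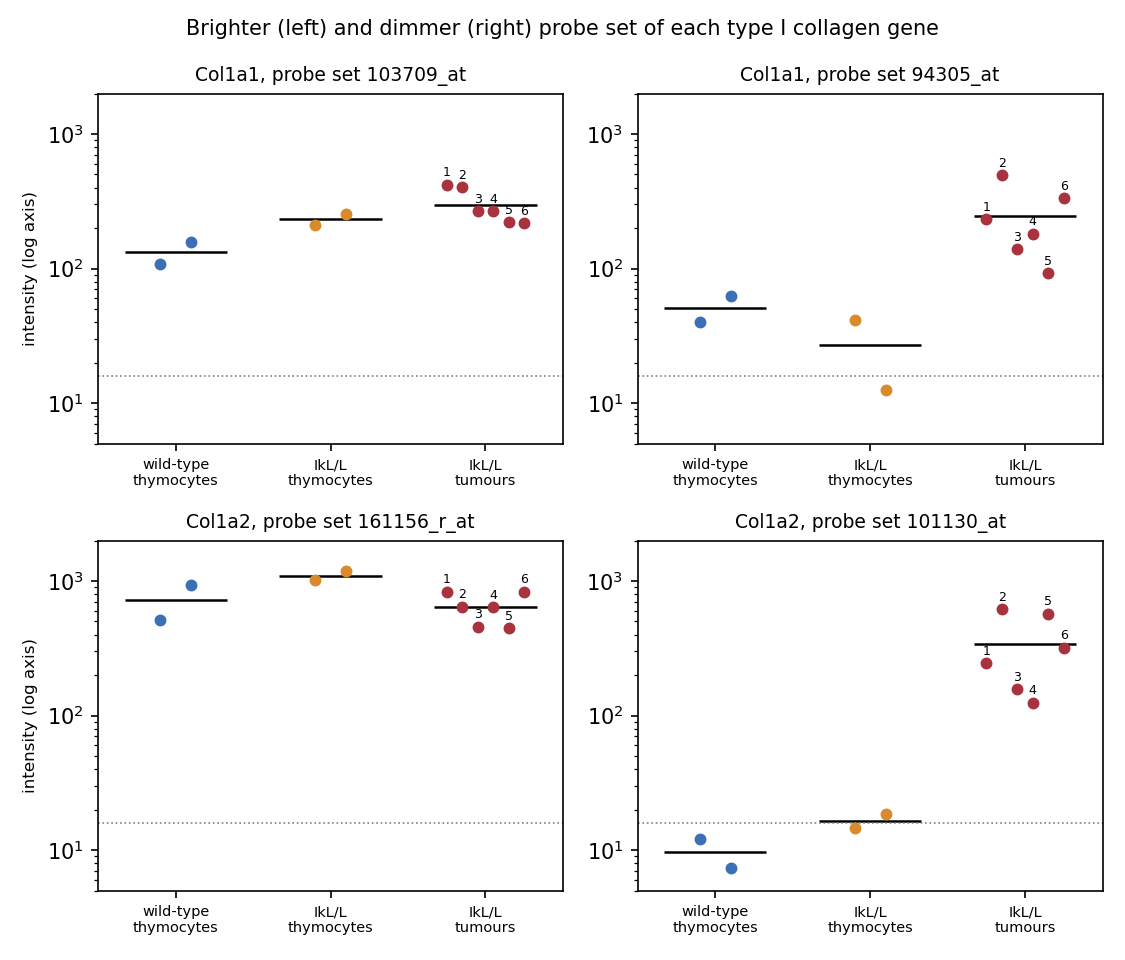
Intensity on a log axis of the brighter (left) and dimmer (right) probe set of Col1a1 and Col1a2, with 1 point per array, numbered tumours, bars at group means and a dotted line at the floor of 16. In the right panels every tumour lies above every thymocyte array, whereas in the left panels the groups overlap.

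The other fibrillar chains were dimmer. Col11a2, a chain of type XI collagen, a minor fibrillar type best known from cartilage (chr17:34038919-34066684), read 61.3, 186.6, 86.0, 191.2, 163.5 and 142.4 in tumours and 16.7, 83.9, 32 and 22.2 in thymocytes. Wild-type array 2 lay above tumour 1. The rise was 2.02 ± 0.47 (SE) in log2, or 4.05-fold (adjusted p = 0.0362). Col3a1, the chain of type III collagen, which fibroblasts usually make together with type I, read 68.5 to 173.2 in tumours and 49.4, 125.3, 14.1 and 149.2 in thymocytes, a difference of 0.72 ± 0.57 (SE; adjusted p = 0.466). Col5a1, a chain of the type that starts fibre assembly, differed by 0.08 (adjusted p = 0.833).

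The promoters below belong to Col1a2, with its split between probe sets, Col3a1, its usual partner, which did not pass, and Col7a1, whose tumours all lay above the thymocytes. Col11a2 and Col15a1 differed by more, but their promoter windows overlapped the annotated gene and were not printed. They are the 250 bases before the start site in RefSeq, build GRCm38.p6. Capitals mark exact matches, on either strand, to CCAAT, to the GC box GGGCGG or to TATAAA.
Col1a2, chr6:4505368-4505617, strand +: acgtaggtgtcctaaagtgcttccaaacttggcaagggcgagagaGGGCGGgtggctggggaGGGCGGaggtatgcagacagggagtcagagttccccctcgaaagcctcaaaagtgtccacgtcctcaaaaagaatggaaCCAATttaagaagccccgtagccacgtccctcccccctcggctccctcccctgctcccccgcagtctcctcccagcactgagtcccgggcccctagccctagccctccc
Col3a1, chr1:45311288-45311537, strand +: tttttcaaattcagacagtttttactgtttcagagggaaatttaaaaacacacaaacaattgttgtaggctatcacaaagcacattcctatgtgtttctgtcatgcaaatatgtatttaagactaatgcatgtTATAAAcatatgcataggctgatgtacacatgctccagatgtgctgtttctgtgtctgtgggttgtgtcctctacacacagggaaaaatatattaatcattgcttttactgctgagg
Col7a1, chr9:108953336-108953585, strand +: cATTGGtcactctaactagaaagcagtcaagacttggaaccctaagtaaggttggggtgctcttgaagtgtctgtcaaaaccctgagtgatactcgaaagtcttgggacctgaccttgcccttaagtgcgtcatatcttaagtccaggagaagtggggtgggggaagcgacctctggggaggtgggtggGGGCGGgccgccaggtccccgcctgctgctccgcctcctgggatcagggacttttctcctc

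Upstream of Col1a2 stood 2 GC boxes, 205 and 188 bases before the start, and a CCAAT 109 bases before it. Col7a1 had a GC box at 61 bases and a CCAAT on the minus strand at 249 bases, and Col3a1 had none of either but a TATAAA at 117 bases. Promoters were listed for 36 of the 57 genes, 40 in all. GC boxes stood in 20 of these 40 (50%) and in 32.7% of all 32851 listed promoters, and CCAAT in 14 (35%) against 33.8%. TATAAA stood in 6 (15%) against 12.4%. The letters TGGGAA, the core of the sequence that Ikaros proteins bind, stood in 13 of the 40 (32.5%) against 21.6% of all listed promoters, among them those of Timp1, Col9a1 and Lamb3, and in none of the 3 printed. No 2 matches overlapped in the sequences shown, and a match is not evidence of binding.

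Among the non-fibrillar collagens outside the basement membrane, 1 of the 10 tested rose and 1 fell. Col7a1, the chain of the anchoring fibrils beneath epithelia (chr9:108953586-108984875), read 522.0, 327.5, 299.1, 260.3, 393.0 and 333.7 in tumours and 172.8, 148.5, 216.0 and 165.4 in thymocytes. The groups did not overlap, although the change was small, 1.0 ± 0.21 (SE) in log2 or 1.99-fold (adjusted p = 0.0257). Col15a1, a collagen found beside the basement membranes of vessels, muscle and fat (chr4:47207655-47313167), went the other way. It read 29.2, 26.5, 40.7, 31.5, 43.0 and 56.6 in tumours and 178.3, 89.0, 97.4 and 106.6 in thymocytes, so that the brightest tumour stayed under the dimmest thymocyte array. The means were 37.9 ± 11.2 (SD, n = 6) and 117.8 ± 41.0 (SD, n = 4). It fell by 1.63 ± 0.27 (SE) in log2, or 3.09-fold (adjusted p = 0.00804). The fall was 1.78 against wild-type (adjusted p = 0.0313), and the difference from IkL/L thymocytes of -1.48 did not pass (adjusted p = 0.0635). Col18a1, the collagen most like Col15a1 and the source of endostatin, differed by -0.02 (adjusted p = 0.976). The 3 chains of type VI collagen, which forms beaded filaments around cells, differed by -0.08 (Col6a1, adjusted p = 0.852), -0.37 (Col6a2, adjusted p = 0.526) and -0.08 (Col6a3, adjusted p = 0.955). Col9a1, a chain of the collagen that coats cartilage fibres, read 108.2 to 198.5 in tumours and 34.3 to 115.0 in thymocytes, a difference of 0.97 (adjusted p = 0.116), while its partners Col9a2 and Col9a3 differed by 0.04 and -0.04. Col26a1 differed by -0.02 (adjusted p = 0.983).

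In the basement membrane 1 of the 8 tested genes rose. Lamb2, the beta-2 laminin chain of vessel walls and synapses (chr9:108479847-108490530), read 144.3, 164.2, 186.1, 66.5, 258.8 and 110.5 in tumours. Both wild-type arrays and IkL/L array 1 were below the floor, at 6.5, 5.5 and 11.0, whereas IkL/L array 2 read 117.9, above tumours 4 and 6. The difference was 2.44 ± 0.53 (SE) in log2 (adjusted p = 0.0271). Against wild-type thymocytes, all at the floor, tumours were at least 8.91-fold higher (adjusted p = 0.0454), and against IkL/L thymocytes the log2 difference of 1.71 did not pass (adjusted p = 0.212). Lamc1, the gamma chain shared by most laminins, differed by -1.21 ± 0.42 (SE; adjusted p = 0.119), and read 33.0 to 173.4 in tumours and 129.7, 181.7, 266.4 and 261.4 in thymocytes. The alpha chains Lama1, Lama3 and Lama5 differed by 0.20, -0.41 and 0.82, with adjusted p of 0.794, 0.728 and 0.426, and the beta-3 chain Lamb3 by -0.83 (adjusted p = 0.448). Col4a1 and Col4a2, which make the common type IV collagen, differed by 0.06 (adjusted p = 0.929) and -0.16 (adjusted p = 0.758).

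None of the 3 tested genes for matrix proteases and their inhibitors passed with limma, and 1 had an unadjusted p under 0.05. Timp2, an inhibitor of matrix metalloproteinases, read 465.8, 166.2, 147.8, 189.5, 236.5 and 161.8 in tumours and 122.2, 31.0, 106.0 and 128.8 in thymocytes. The groups did not overlap, yet the difference of 1.30 ± 0.42 (SE) missed the threshold (adjusted p = 0.098). Timp1, another inhibitor, differed by -0.28 (adjusted p = 0.7), and Mmp11, stromelysin-3, by 0.44 (adjusted p = 0.457).

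Comparing the tumours with each thymocyte genotype separately, 6 of the 34 genes (17.6%, against 1.88% of all probe sets) passed relative to wild-type thymocytes. Pdgfrb, Bmp7, Lamb2, Mgp and Fn1 rose (14.7%, against 1% of all probe sets higher) and Col15a1 fell (0.878% of all probe sets were lower). Relative to IkL/L thymocytes 1 gene passed, Pdgfrb, which rose (2.94%, against 1.42% called in either direction and 0.906% higher). These comparisons share the 6 tumour arrays. Pdgfrb and Mgp had passed the filter through tumour arrays alone and Col15a1 through thymocyte arrays alone, so a difference was built into these calls too. Between the thymocyte genotypes 0 of the 34 genes passed with limma, where 0.0139% of all probe sets did. Only Fn1, with a log2 difference of 1.25 toward IkL/L, had an unadjusted p under 0.05, as did 3.21% of all probe sets. Within the IkL/L pair, array 2 stood apart for these genes. It was the brightest thymocyte array for 20 of the 34 (58.8%), where it was so for 27.1% of all probe sets, and for 6 of the 8 that rose. Bmp7 (215.3 against 40.5), Lamb2 (117.9 against 11.0) and Fn1 (226.6 against 116.9) show the gap from IkL/L array 1. Single genes of 2 marker lists described further on were also brightest there among thymocytes. The endothelial gene Eng read 978.7 on IkL/L array 2 and 458.7 to 589.1 on the other thymocyte arrays. Ctsl, of the thymic epithelial list, read 4722.6 on IkL/L array 2, 3904.0 and 3029.4 on the wild-type arrays and 860.3 on IkL/L array 1. For Ctsl it was thus IkL/L array 1 that stood apart. Without these genes the sums of both lists on IkL/L array 2, 346.9 and 958.7, lay within or at the lower edge of the thymocyte range (256.0 to 384.7 and 958.7 to 1613.9). Their part in the gap was not tested. Without IkL/L array 2, 7 of the 9 calls against both genotypes remained, those of Col11a2 and Col7a1 being lost.

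The tumours also differed among themselves. The median SD across tumours was 0.63 in log2 over the 34 genes and 0.39 over all tested probe sets. These sets were not matched for intensity. Tumours 1 and 6 were each brightest for 10 of the 34 (29.4%), where they were so for 17.1% and 27.9% of all probe sets. Tumours 4 and 5 were dimmest for 10 (29.4%, against 23.3%) and 9 (26.5%, against 13.7%), so that the shares of tumours 6 and 4 lay nearer those of the whole array. Tumour 1 ranked among the upper 2 tumours for 18 of the 34 genes (52.9%, against 36.3% of all probe sets) and tumour 6 for 19 (55.9%, against 41.7%). The genes that rose were not all brightest in the same tumour. Mgp, Dcn and Col7a1 were brightest in tumour 1, Fn1 in tumour 6, Pdgfrb in tumour 3, Bmp7 and Col11a2 in tumour 4, and Lamb2 in tumour 5. Tumour 4, dimmest for Dcn, Lamb2 and Col7a1, had at the same time the highest Bmp7.

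**Figure D4:**
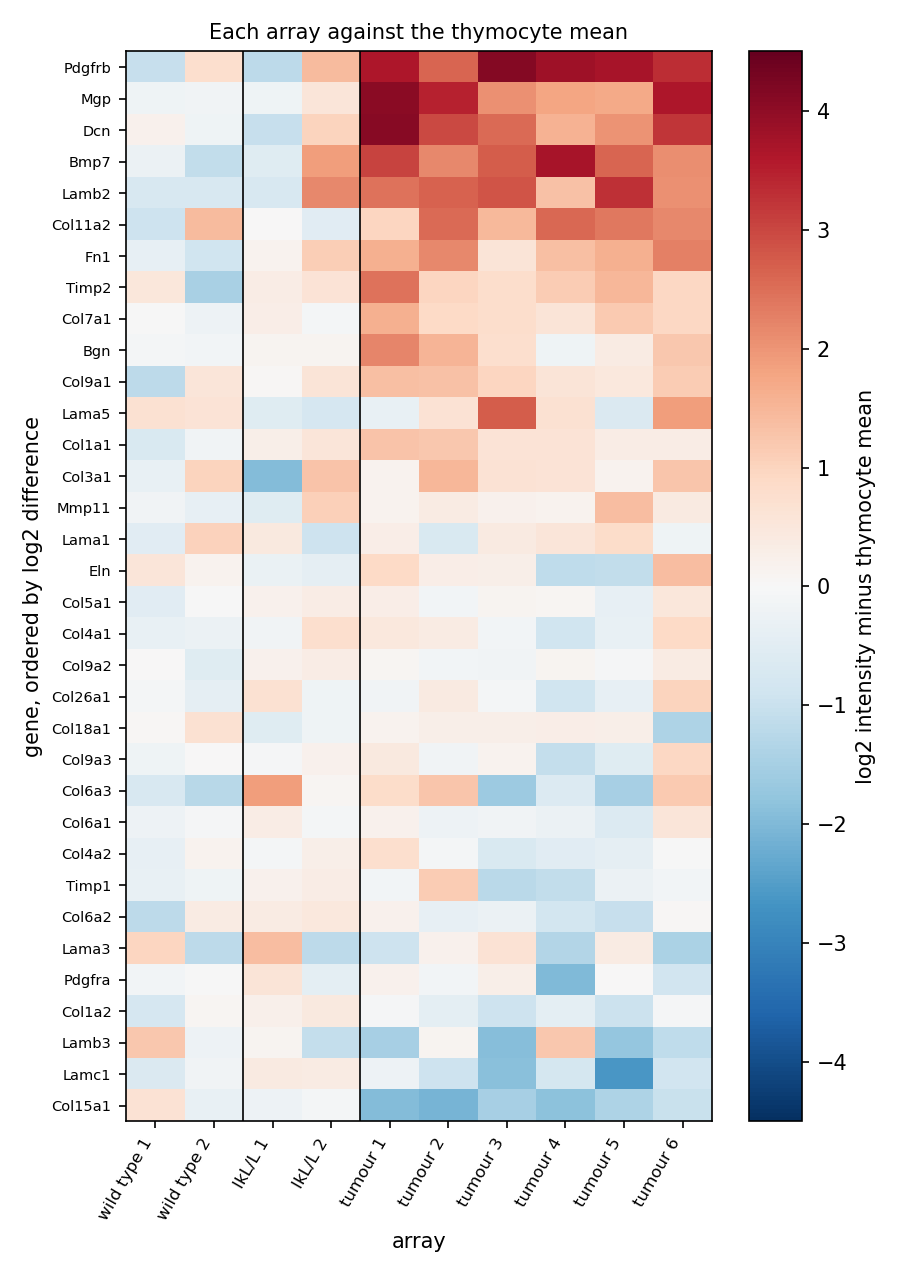
Log2 intensity of each array minus the mean of the 4 thymocyte arrays (colour scale, red higher and blue lower) for the 34 tested matrix and stromal genes, ordered by the tumour difference, with lines between wild-type thymocytes, IkL/L thymocytes and tumours. Strong red fills the tumour columns only for the genes at the top, and IkL/L array 2 is red for Pdgfrb, Bmp7 and Lamb2.

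The scanner records gave the chip lot, the hybridization day and the fluidics module and run of every array. All thymocyte arrays were of lot 1 and day 1, tumours 1 to 5 were of lot 2, and only tumours 4 and 6 were hybridized on day 1, so within a batch the comparison rests on 1 tumour (lot) or 2 tumours (day). All 9 called genes kept their direction with lot, day, module or run as a block. With day as a block the log2 differences were 3.57 for Pdgfrb (adjusted p = 0.0616), 2.90 for Bmp7 (adjusted p = 0.0894), 2.69 for Mgp (adjusted p = 0.107), 2.39 for Dcn (adjusted p = 0.167) and 1.82 for Fn1 (adjusted p = 0.0616). They were 2.39 for Col11a2 (adjusted p = 0.129), 1.70 for Lamb2 (adjusted p = 0.257), 0.76 for Col7a1 (adjusted p = 0.206) and -1.42 for Col15a1 (adjusted p = 0.113). With lot as a block they were 3.34 for Pdgfrb, 2.09 for Bmp7, 3.62 for Mgp, 3.21 for Dcn, 2.27 for Fn1, 2.17 for Col11a2, 2.07 for Lamb2, 0.94 for Col7a1 and -1.0 for Col15a1, with adjusted p from 0.102 to 0.399. None of the 9 passed with lot, day or run as a block, and 6 did with module. The dimmer Col1a2 probe set kept a difference of 3.59 with day (adjusted p = 0.0143) and 4.24 with module (adjusted p = 0.00337), and gave 4.27 with lot (adjusted p = 0.0571) and 3.59 with run (adjusted p = 0.237). The dimmer Col1a1 probe set gave 2.79 with day (adjusted p = 0.0878), 2.41 with module (adjusted p = 0.0108), 3.23 with lot (adjusted p = 0.115) and 3.27 with run (adjusted p = 0.455). Leaving out 1 array at a time, Pdgfrb and Col15a1 passed in 10 of 10 fits, Bmp7 in 9, Mgp in 8, Dcn in 7, Fn1 in 6, Col7a1 in 5, and Lamb2 and Col11a2 in 4 each.

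Other genes of matrix biology, read as lists chosen by function, gave 4 calls among 42 tested genes (9.52%, against 6.27% of all probe sets), 2 upward and 2 downward. No enzyme or chaperone of collagen synthesis passed among 7 tested (median log2 difference 0.16, P4ha1 0.57, adjusted p = 0.18, 1 of 7 with an unadjusted p under 0.05). Of 7 tested glycoproteins and proteoglycans outside the 57 genes, Agrn rose, which encodes agrin, a heparan sulfate proteoglycan of basement membranes. It read 234.0 to 682.5 in tumours and 89.1, 97.0, 97.3 and 173.3 in thymocytes, a log2 difference of 1.70 ± 0.31 (SE; adjusted p = 0.0135). Among 14 matrix receptors Sdc1 rose and Itga6 fell. Sdc1, a cell-surface proteoglycan of epithelium and plasma cells, read 45.2 to 151.0 in tumours and 10.7, 9.8, 11.8 and 41.3 in thymocytes, a difference of 2.36 ± 0.37 (SE; adjusted p = 0.00634). It passed the filter through tumour arrays alone. Itga6, the alpha-6 chain of a laminin-binding integrin, differed by -1.63 ± 0.42 (SE; adjusted p = 0.0472). Of 10 tested genes of platelet-derived growth factor, TGF-beta and BMP signalling, Id3, a BMP-responsive inhibitor of helix-loop-helix factors, fell by 1.64 ± 0.34 (SE; adjusted p = 0.0242). Its relative Id1, on the same list, had a difference of the opposite sign, 1.80 ± 0.60 (SE), which did not pass (adjusted p = 0.108). None of 4 other proteases and inhibitors passed with limma (1 unadjusted), Ctsk, a collagen-degrading protease, being at 1.21 (adjusted p = 0.0824).

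Marker lists for the cells that could lie in the samples were read on the same arrays. Fibroblast markers, 12 on the array and 6 tested, gave 0 calls with limma (1 unadjusted). The list is not separate from the results above. Col6a1 is itself among the matrix and stromal genes, and Pcolce, Fbln1, Fbln2, Loxl1 and Ddr2 stood on the lists chosen by function. The summed level of the 12 was 1200.2 to 3223.9 in tumours and 1423.3 to 1707.1 in thymocytes. Fbln1 held the largest part of it over the arrays, at 440.2 to 2042.3 in tumours and 322.6 to 512.2 in thymocytes. Its log2 difference of 1.17 did not pass (adjusted p = 0.142). Without Fbln1 the sums were 392.2 to 1264.9 in tumours and 959.7 to 1239.8 in thymocytes. Of the fibroblast markers Dpt, Fap, Pdpn and Twist1, none was tested, and their intensities were at most 51.7 on any array. Dpt read 6.9 to 37.2 in tumours and 2.7 to 8.7 in thymocytes, and Twist1 4.8 to 51.7 and 6.7 to 15.3. Fap read 2.1 to 22.3 in tumours and 2.7 to 40.6 in thymocytes, and Pdpn 2.9 to 47.9 and 5.0 to 26.6. Pericyte and smooth muscle markers summed to 772.7 to 1945.7 in tumours and 679.8 to 798.0 in thymocytes, a sum carried by Notch3, which also acts in thymocytes and which alone of 9 was tested and rose (1.27, adjusted p = 0.0322). Without Notch3 the sums were 206.5 to 373.2 and 186.7 to 338.6. Acta2, the smooth muscle actin, read 7.2 to 33.3 on all arrays, and Rgs5, a pericyte marker, 7.6 to 53.4 in tumours and 52.1 to 58.7 in thymocytes. Des, of the same list, read 12.1 to 136.4 in tumours and 22.2 to 65.6 in thymocytes. The untested markers of this list differed by 0.585 (Des), 0.513 (Myl9), 0.313 (Myh11), 0.184 (Acta2), 0.156 (Tpm2), 0.009 (Cnn1), -0.531 (Tagln) and -0.835 (Rgs5) in log2. Endothelial markers, 10 on the array and 3 tested, summed to 625.0 to 1513.1 in tumours and 833.3 to 1325.6 in thymocytes. Without Eng, which held the largest part, the sums were 180.3 to 583.1 and 256.0 to 384.7. Vwf rose (1.92, adjusted p = 0.0399), while Pecam1 at -0.02 (adjusted p = 0.988) and Eng at 0.17 (adjusted p = 0.794) did not pass. The untested endothelial markers differed by -1.378 (Flt1) to 0.85 (Tie1) in log2. Vwf, at most 18.5 on any thymocyte array, passed the filter through tumour arrays alone. Macrophage markers, which include the complement genes C1qa to C1qc and Apoe, rose for 7 of 11 tested. Over all tested probe sets 3.49% were called higher and 2.79% lower. The macrophage sum was 9544.0 to 20083.8 in tumours and 3293.5 to 3889.7 in thymocytes. Apoe held the largest part of it, and without Apoe the sums were 4624.7 to 9726.1, highest in tumour 1 and lowest in tumour 6, and 2089.8 to 2608.8 in thymocytes. Thymic epithelial markers fell for 4 of 6 tested, with sums of 634.6 to 1395.3 in tumours and 1821.5 to 5681.3 in thymocytes, and of 366.0 to 728.7 and 958.7 to 1613.9 without Ctsl. Thymocyte markers summed to 32900.2 to 56505.9 in tumours and 61163.5 to 72541.8 in thymocytes. Of 12 tested, Cd4, Cd8a, Rag1 and Rag2 were lower and Ptcra higher, and 7 did not pass. Of 2 tested adipose genes Lpl rose (2.40, adjusted p = 0.0102) and held the only positive difference. The adipose sums were 225.1 to 946.5 in tumours and 361.7 to 553.0 in thymocytes. Of 4 tested skeletal muscle genes Mylpf fell, 3 did not pass and 1 had a positive difference. Of 4 tested erythroid genes 0 passed (0 unadjusted). The part of any of these cells in the matrix gene results was not tested.

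**Figure D5:**
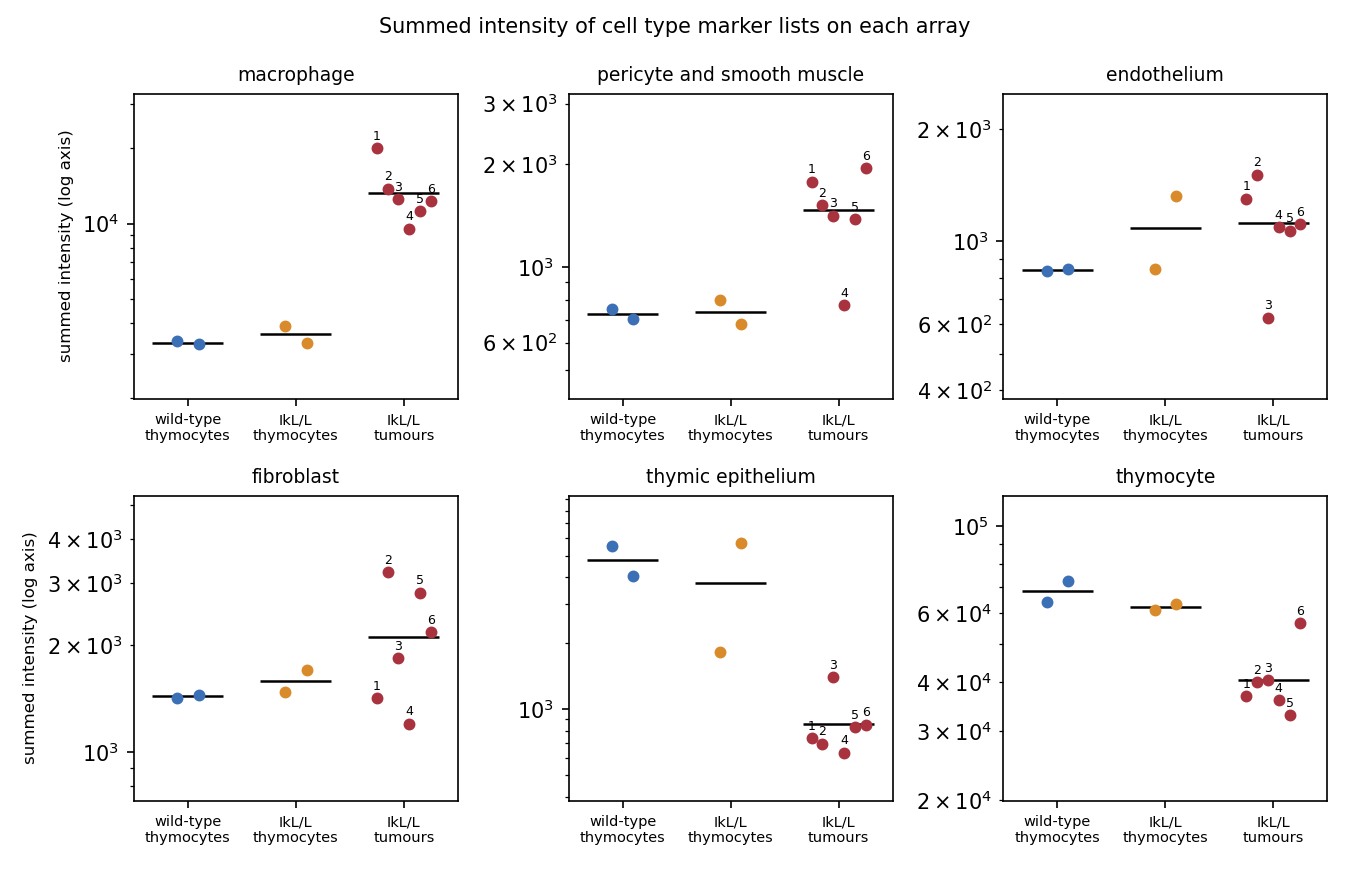
Summed intensity of 6 cell type marker lists on each array (vertical log axis), by group, with numbered tumours and bars at group means. Macrophage sums lie wholly higher in tumours and thymic epithelial and thymocyte sums wholly lower, whereas fibroblast and endothelial sums overlap between groups.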

How the data were processed

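Total RNA of 10 samples was measured on MG_U74Av2 arrays. The deposited values are intensities per probe set, computed and scaled by the authors; the software is not given in the sources used here. The mean after trimming 2% at each end was 300.2 on every array, medians were 79.8 to 113.2, and no further scaling was applied. Of 12488 probe sets 10855 had 1 gene symbol, 396 several and 1237 none, and 10839 matched the GRCm38.p6 gene table. Intensities under 16, the 20th percentile of all values, were set to 16 (15.4% to 24.2% of an array), and log2 was taken. After removal of 66 controls, probe sets above the array median on at least 2 arrays were tested, 7172 in all, with limma 3.58.1 in R 4.3.3. Each group had 1 mean over the 10 arrays (7 residual and 3.17 prior degrees of freedom), and the 2 thymocyte groups were weighted equally. A gene was called at a Benjamini-Hochberg adjusted p under 0.05. Folds are 2 to the power of the log2 difference, and the number of arrays limits the precision. Runs were hybridizations within 10 minutes of each other. The fit was tested on simulated data.

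The members and lists were chosen with earlier results of these data known. By rule, values on all arrays are given for called members and the brighter members of each role compared with them. From a list the called genes, or up to 3 with the smallest unadjusted p, are named. Dpt, Fap, Pdpn, Twist1, Acta2, Rgs5, Pecam1, Eng, Ctsl and Id1 were added after their values were seen. So were Des, Myl9, Myh11, Tpm2, Cnn1, Tagln, Flt1 and Tie1. Alternatives were log2(intensity + 16) without a floor, a floor of 32, no filter or a filter at 5 arrays, quantile normalization, an intensity trend, lot, day, module and run as blocks, lot 1 or day 1 alone, the mean over probe sets of a gene, and leaving out each array.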

Additional observations from a re-analysis of the deposited data

Results flagged for a closer look

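Among the 34 tested genes, 5 had a tumour far from the other 5 by Dixon's test of a single distant value. The test was applied to intensities before log2. Chance gives such a value in about 1 of 20 groups if values are normally distributed, which was not tested for these intensities. Tumour 1 read 297.0 for Col4a2, a type IV collagen chain, with the next tumour at 175.6, and 465.8 for Timp2, with the next at 236.5. Tumour 2 read 472.9 for Timp1 against 200.4 in the next. Tumour 5 read 141.3 for Mmp11 against 71.4 in the next. Tumour 6 read 43.5 for Col18a1, where the next lowest was 126.7. None of the 9 called genes had such a tumour.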

How the results depend on the processing

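The number of genes called against both thymocyte groups was 9 and changed by over 1.5 times in these settings: 5 with no filter, 0 with lot, day or run as a block, 1 in lot 1 alone (Mgp) and 0 in day 1 alone. Leaving out 1 array it ran from 3 (without IkL/L replicate 1) to 9, with 4 without wild-type replicate 1, 5 without wild-type replicate 2 and 5 without tumour 5. Against wild-type thymocytes the count of 6 became 0 with no filter, with lot, day or run as a block, and in lot 1 or day 1 alone, and 2 with module as a block. It ran from 0 (without either wild-type replicate) to 6 when 1 array was left out, with 2 without tumour 1, 2 without tumour 5 and 3 without tumour 2. Where 1 array of a group remained, it was assumed to vary like the other groups. Against IkL/L thymocytes the count of 1 became 2 with a floor of 32, 3 with quantile normalization, 2 with an intensity trend, 2 with the mean over probe sets, and 0 with no filter, with any block, and in lot 1 or day 1 alone. Leaving out 1 array it ran from 0 to 2, with 0 without tumour 1, 3, 4 or 5 or IkL/L replicate 1, and 2 without tumour 6. The mean over probe sets added Col1a1 and Col1a2 to the 9. With no filter all non-control probe sets entered the adjustment, and lot and day settings leave 1 or 2 tumours beside thymocytes, as does run, while the cause of the other changes was not tested. Between thymocyte genotypes the count was 0 in every setting run. No called direction was reversed. No paired analysis was possible because the numbers of replicates only follow the order in which arrays were deposited. Genes with thymocyte arrays at the floor (Mgp, Lamb2, Pdgfrb, Dcn and the dimmer Col1a2 and Col1a1 probe sets) have folds limited by it.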
